A study of Mus musculus with 29 samples.

Results

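The 48 genes described here make up a large part of the machinery that copies and repairs mouse DNA. They were chosen by name, with earlier results of these data known: 32 replication genes and 16 repair genes. Of them 47 were measured, 31 replication and all 16 repair genes, among 14602 genes tested on the same arrays, and Chaf1a was not analysed here. The study hybridised total RNA of 28 mouse lung tumours and of 1 normal lung to Affymetrix expression arrays, 29 in all, to ask how overexpression of the mitotic checkpoint gene Mad2 bears on tumours driven by inducible KrasV12. In each group the mice had a 129/Bl6 mixed background and carried CCSP-rtTA, a doxycycline-controlled transactivator that the CCSP promoter drives in airway epithelium. The 6 TI-KM recurrences were relapsed tumours of mice with CCSP-rtTA, TRE-KrasV12 and TRE-Mad2. The 14 TI-KM primaries were primary tumours of that same genotype, and the 8 TI-K primaries came from mice with CCSP-rtTA and TRE-KrasV12 but no TRE-Mad2. The single normal lung carried CCSP-rtTA alone, with no TRE transgene. The labels name adenocarcinoma or adenoma as the tissue and give no age and no doxycycline schedule. They do not say that the tumours came from separate animals, and 2 TI-KM primaries share the title number 76, so p-values measure only the spread between these samples.

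Before S phase, the origin recognition complex (Orc1, Orc6), Cdc6 and Cdt1 load the hexameric MCM2-7 helicase onto DNA, a step that geminin (Gmnn) blocks after it has happened once. Cdc45 and the GINS complex join the loaded ring with the help of Mcm10 to give the active helicase. Primase and DNA polymerase alpha then lay primers, the RFC loader places the PCNA clamp, polymerases delta and epsilon extend the strands, and Fen1 and Lig1 finish the lagging strand. Many of these genes are transcribed by E2F factors as cells leave G1, so that in bulk tissue their RNA is known to follow the share of dividing cells. The repair genes serve several systems: homologous recombination and its Fanconi anaemia partners, mismatch repair, end joining through Ku, repair of single-strand breaks, and the checkpoint kinases Atm, Atr, Chek1 and Chek2. Some of them are used in every cell and others mainly in cells that are copying their DNA.

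Signals below are MAS5 values of 1 probe set per gene, the one with the highest mean log2 level, on the authors' scale, where the trimmed mean of every array is 500.003. Differences are on the log2(signal + 20) scale with their standard error, and a gene was called when limma gave an adjusted p below 0.05 over all 14602 genes (Benjamini-Hochberg). Levels are not compared between genes, since each probe set has its own response. All 47 members passed the filter on dim probe sets.

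By their control signals and title numbers the arrays formed sets, for which no label gives a reason, and 1 recurrence stood apart. TI-KM recurrences 1 to 4 and TI-KM primaries 1 to 6 had 18S control signals between 12665 and 24001 (the high-18S set), TI-K primaries 1 to 5 had title numbers above 6000 and 18S signals between 7616 and 8523, and the remaining tumour arrays lay between 5939 and 10857. The normal lung was at 12569. The log2 ratio of 3′ to 5′ control signals, which grows as RNA shortens, averaged 1.32 ± 0.45 in recurrences (SD, n = 6), 2.16 ± 0.67 in TI-KM primaries (n = 14), 2.16 ± 0.41 in TI-K primaries (n = 8) and 2.59 in the normal lung. Recurrence 1 was the highest of the 6 recurrences in 24 of 31 replication and 9 of 16 repair members. Its summed B-cell marker signal was 22745 over the 5 of 6 listed markers measured, against at most 2821 in any other tumour and 1500 in the normal lung. Its T and NK cell sum was 5949 over 6 of 8 markers, against at most 1264 in the other tumours. Not every marker followed: Cd3e and Cd8a reached at most 191 and 346 in recurrences, against up to 319 and 433 in TI-KM primaries. The alveolar type 2 sum of recurrence 1, 71182 over 7 of 8 markers, was the lowest of the 28 tumours. Member calls in recurrences are therefore also given without this array. Results on further genes, roles, proliferation markers and single probe sets include it. The normal lung differed from the tumours in makeup as well. It had an alveolar type 2 sum of 49604, against 71182 to 170468 in tumours, an endothelial sum (7 of 7 markers) of 16039, against 2161 to 7667 in tumours, and a signal of 17182 for Cidea, the 1 of 6 adipocyte markers measured, against at most 265 in any tumour. How far these shares of other cells contribute to the differences from normal lung was not tested.

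Against the normal lung, replication genes were mostly higher in tumours, and Mcm6 of the helicase, its loader Cdt1, the GINS subunit Gins2, the clamp loader subunit Rfc5 and the ligase Lig1 were called in all 3 tumour groups. In TI-KM recurrences 6 of 31 replication members rose and none fell, in TI-KM primaries 6 rose and none fell, and in TI-K primaries 7 rose and 1 fell. Over all genes, 6.46% were called higher and 6.09% lower in recurrences, 7.75% higher and 7.16% lower in TI-KM primaries, and 6.74% higher and 6.79% lower in TI-K primaries. The median log2 difference of the replication members was 0.78 in recurrences, 0.72 in TI-KM primaries and 0.84 in TI-K primaries, where the medians of all genes were 0.14, 0.10 and 0.00 in the same order of groups, and 28, 26 and 27 of 31 members lay above 0. At an unadjusted p below 0.05 the counts were 10, 9 and 14 in that order. Such counts were high over all genes too. In recurrences without recurrence 1, 10 of 31 replication members and 4014 of 14602 genes had such a p. Unadjusted counts here and below are descriptions, since the share over all genes is not given beside each. The 3 comparisons share the 1 normal array, whose own spread is not known and was taken to equal that of the tumours, so they are not independent of each other. Scaling every array to a common median moved the median of all genes to 0.17, 0.17 and 0.13 and left the replication medians above it, at 0.80, 0.80 and 0.96, with 2, 2 and 4 replication members called. On that scaling 3.95% of all genes were called higher and 3.44% lower in recurrences, 5.11% and 4.46% in TI-KM primaries and 4.21% and 4.03% in TI-K primaries. In bulk RNA, fewer cells of a type and less RNA per cell cannot be told apart.

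**Figure D1:**
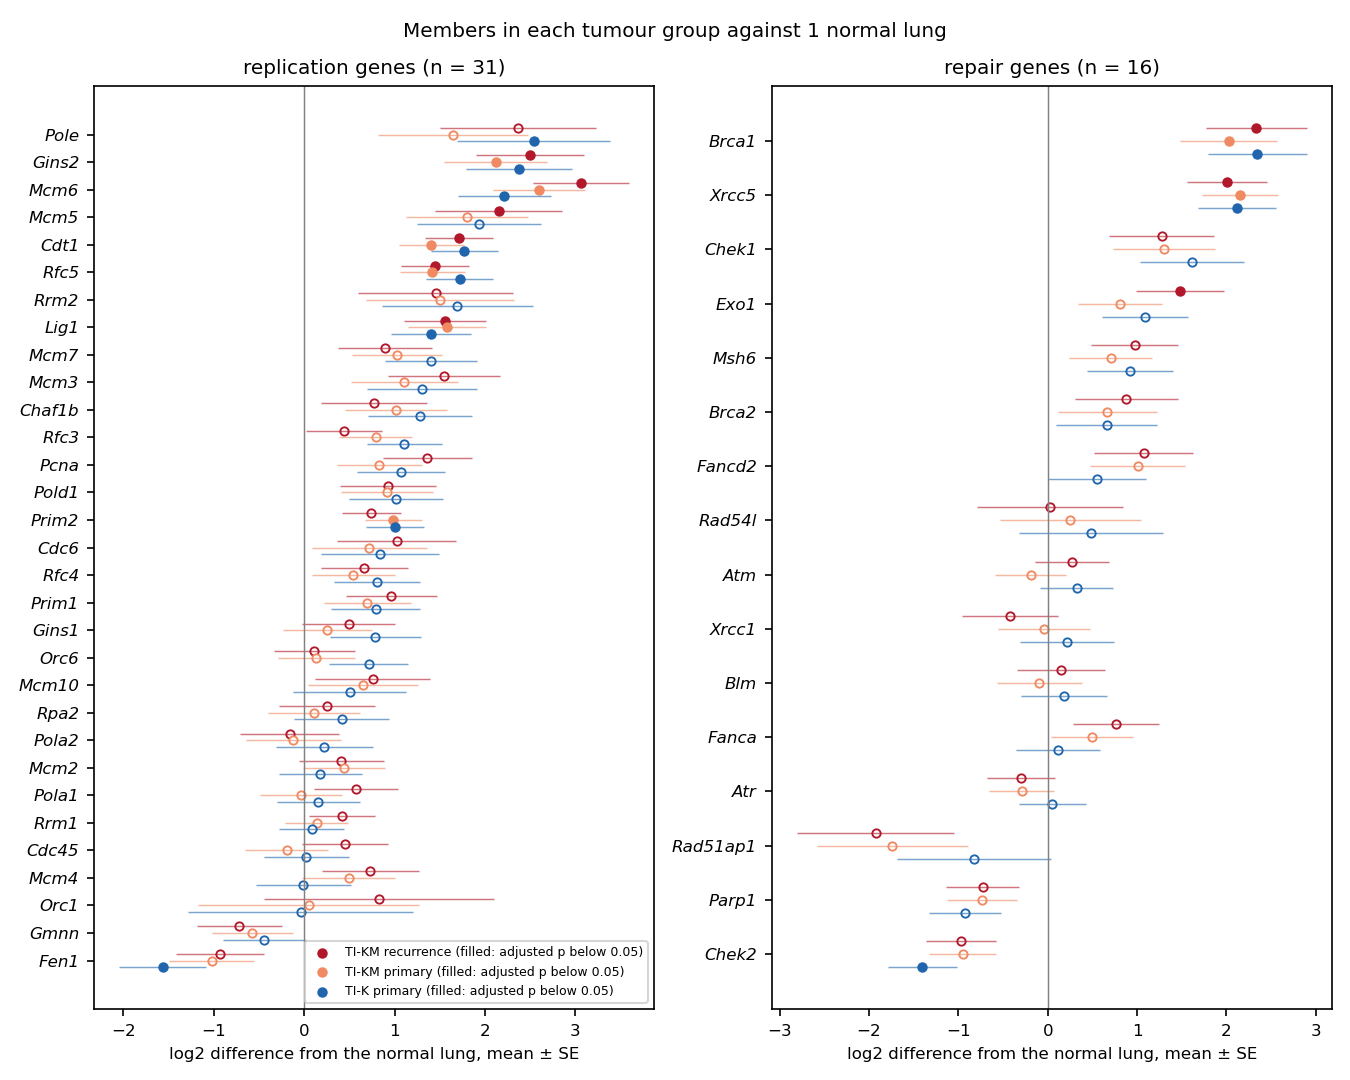
Log2 difference from the normal lung (log2(signal + 20) scale, bars 1 SE) for each replication and repair member in TI-KM recurrences, TI-KM primaries and TI-K primaries; filled points have an adjusted p below 0.05. Mcm6, Cdt1, Gins2, Rfc5 and Lig1 are filled in all 3 tumour groups, and so are Xrcc5 and Brca1 among the repair genes.

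Within replication, the MCM helicase had the highest median difference of the roles with several genes. Mcm6 had signals between 1249 and 4435 in recurrences (median 1956), between 884 and 2432 in TI-KM primaries (median 1748) and between 732 and 1851 in TI-K primaries (median 1143), against 241 in the normal lung. Every tumour array was above the normal lung. The log2 differences were 3.06 ± 0.53 (8.35-fold, limma adjusted p = 0.000152) in recurrences, 2.60 ± 0.51 (6.05-fold, 0.000505) in TI-KM primaries and 2.22 ± 0.52 (4.64-fold, 0.00344) in TI-K primaries. Mcm5 lay between 469.9 and 4954 in recurrences, 505 and 1812 in TI-KM primaries and 913 and 2284 in TI-K primaries, against 338 in the normal lung. It too was above normal in all tumours, and it passed the test in recurrences (2.15 ± 0.70, 4.45-fold, adjusted p = 0.0402 by limma), where leaving out recurrence 5 ended the call. In the primaries the limma adjusted p was 0.0704 for TI-KM (1.80) and 0.0602 for TI-K (1.93). By the chosen probe sets the ring's other subunits were not called in any of the 3 comparisons. Tested by probe set, Mcm2 and Mcm3 each had one called higher in recurrences and in TI-K primaries, and Mcm5 in all 3 groups. Mcm7 reached medians of 3094 in recurrences, 3075 in TI-KM primaries and 3718 in TI-K primaries, against 1479 in the normal lung, and Mcm3 reached 805, 612 and 636 in the same groups, against 263. Mcm4 (medians 3369, 3389.8 and 2619, against 2500.3) included the normal value in the range of each group, and Mcm2 (882, 968 and 809.7, against 731) in recurrences and TI-K primaries. Across the 6 subunits the median log2 difference was 1.22 in recurrences, 1.07 in TI-KM primaries and 1.35 in TI-K primaries, with 6, 6 and 5 subunits above 0.

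Of the licensing factors, Cdt1 rose in each tumour group, while its inhibitor gene Gmnn was not called. Cdt1 had signals between 1109.5 and 2983 in recurrences (median 2111), between 1158 and 2260.2 in TI-KM primaries (median 1639) and between 1651 and 3086 in TI-K primaries (median 2049.7), against 590.3 in the normal lung. Its lowest tumour value was thus above normal, and the log2 differences were 1.71 ± 0.37 in recurrences (3.27-fold, limma adjusted p = 0.00221), 1.40 ± 0.36 in TI-KM primaries (2.65-fold, 0.00666) and 1.77 ± 0.37 in TI-K primaries (3.42-fold, 0.00109). Gmnn medians were 1129, 1185 and 1317 in the same 3 groups, against 1757 in the normal lung, and all 6 recurrences were below normal without passing the test. Orc1 and Orc6, subunits of the origin recognition complex, and the loader Cdc6 had normal values of 100.2, 353 and 95.1, inside the range of the 28 tumours for each. By its chosen probe set Orc1 spread widely, between 14.1 and 499 in recurrences, and in the TI-KM groups these signals went with the array sets. Recurrences 1 to 4 (high-18S) had 266 to 499, recurrence 5 had 102 and recurrence 6 had 14.1. TI-KM primaries 1 to 6 (high-18S) had 273 to 381, and TI-KM primaries 7 to 14 had 16.1 to 110. The other Orc1 probe set, 1422663_at, spread less, with 46.3 to 106 in recurrences and 49.1 to 125 in TI-KM primaries, against 55.6 in the normal lung.

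Among the factors that turn the loaded helicase on, Gins2 rose in each tumour group. Its signal was between 141 and 460.0 in recurrences (median 298), 61.8 and 476 in TI-KM primaries (median 210.0) and 131 and 422 in TI-K primaries (median 229), against 31.2 in the normal lung. No tumour overlapped the normal value, and the log2 differences were 2.50 ± 0.59 (limma adjusted p = 0.00466), 2.12 ± 0.57 (0.00994) and 2.38 ± 0.58 (0.00518) in that order. The normal signal is near the offset of 20, so the sizes depend on it: with an offset of 5 they were 2.92, 2.51 and 2.79, and with 100 they were 1.51, 1.23 and 1.41, called in each case. With probe sets of shared sequence left out, another probe set stands for Gins2 and the calls were lost (adjusted p 0.167, 0.174 and 0.0574). Cdc45, the helicase cofactor, had 128 to 624 in recurrences (median 178), 102 to 199 in TI-KM primaries (median 132) and 133 to 253 in TI-K primaries (median 141), against 156 in the normal lung. Those ranges include the normal value, and the differences of 0.45 ± 0.48, -0.19 ± 0.46 and 0.03 ± 0.47 had limma adjusted p of 0.599, 0.85 and 0.983. Gins1, a partner of Gins2, and Mcm10 were not called.

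At the fork itself, the loader subunit Rfc5 and the ligase Lig1 rose in every tumour group. Rfc5 had 277 to 721 in recurrences (median 389.8), 258 to 619 in TI-KM primaries (median 413) and 385 to 657 in TI-K primaries (median 501), against 139 in the normal lung. The log2 differences were 1.45 ± 0.38 (2.73-fold, limma adjusted p = 0.00979), 1.42 ± 0.36 (2.67-fold, 0.00671) and 1.72 ± 0.37 (3.3-fold, 0.0016), with no overlap. Lig1, which seals Okazaki fragments, lay between 350.1 and 1117 in recurrences (median 756), 475 and 1043 in TI-KM primaries (median 736) and 484 and 906 in TI-K primaries (median 650.9), against 232, and its differences were 1.56 ± 0.45 (2.94-fold, 0.0197), 1.58 ± 0.43 (2.99-fold, 0.011) and 1.41 ± 0.44 (2.65-fold, 0.0304). The primase subunit Prim2 had 546 to 1393 in TI-KM primaries and 644 to 1028 in TI-K primaries, against 377 in the normal lung, and rose in both, by 0.99 ± 0.31 in TI-KM primaries (1.98-fold, limma adjusted p = 0.0298) and by 1.01 in TI-K primaries (0.032). Pole, the catalytic subunit of polymerase epsilon, was 39.1 to 201 in TI-K primaries and 6.42 in the normal lung, a called rise of 2.54 (limma adjusted p = 0.0427), and 25.8 to 411 in recurrences, where the difference of 2.36 had an adjusted p of 0.0697. So low a normal signal makes the size of that difference depend on the offset. Fen1, the flap nuclease, was the replication member that fell: its probe set had 859.9 to 3423 in TI-K primaries (median 1813), against 5521 in the normal lung, a log2 difference of -1.57 ± 0.48 (2.96-fold lower, limma adjusted p = 0.0253), and a second Fen1 probe set showed the opposite, as described below for the probe sets. The clamp Pcna had medians of 3956, 3205 and 3469.6 in the 3 tumour groups, against 1622, and was not called.

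By role, the clamp and its loader subunits (4 genes) had median log2 differences of 1.01 in recurrences, 0.81 in TI-KM primaries and 1.09 in TI-K primaries, and all 4 were above 0 in each. The 6 polymerase and primase subunits had 0.84, 0.81 and 0.90, the 4 firing factors 0.63, 0.45 and 0.65, and the 5 licensing factors 0.83, 0.13 and 0.72. The licensing value of 0.83 in recurrences is the difference of Orc1 by its chosen probe set, whose signals went with the array sets. The ribonucleotide reductase subunits Rrm1 and Rrm2, which make the deoxynucleotides, had 0.93, 0.82 and 0.89, and Chaf1b, a subunit of the chromatin assembly factor, had 0.78, 1.02 and 1.28, with none called. The strand processing role (Rpa2, Fen1 and Lig1) was mixed. Lig1 rose, and Fen1 by its chosen probe set had every group median below normal. Rpa2 had median signals of 521 in recurrences, 451 in TI-KM primaries and 507 in TI-K primaries, against 382 in the normal lung. The signals of 10 members are drawn by array.

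**Figure D2:**
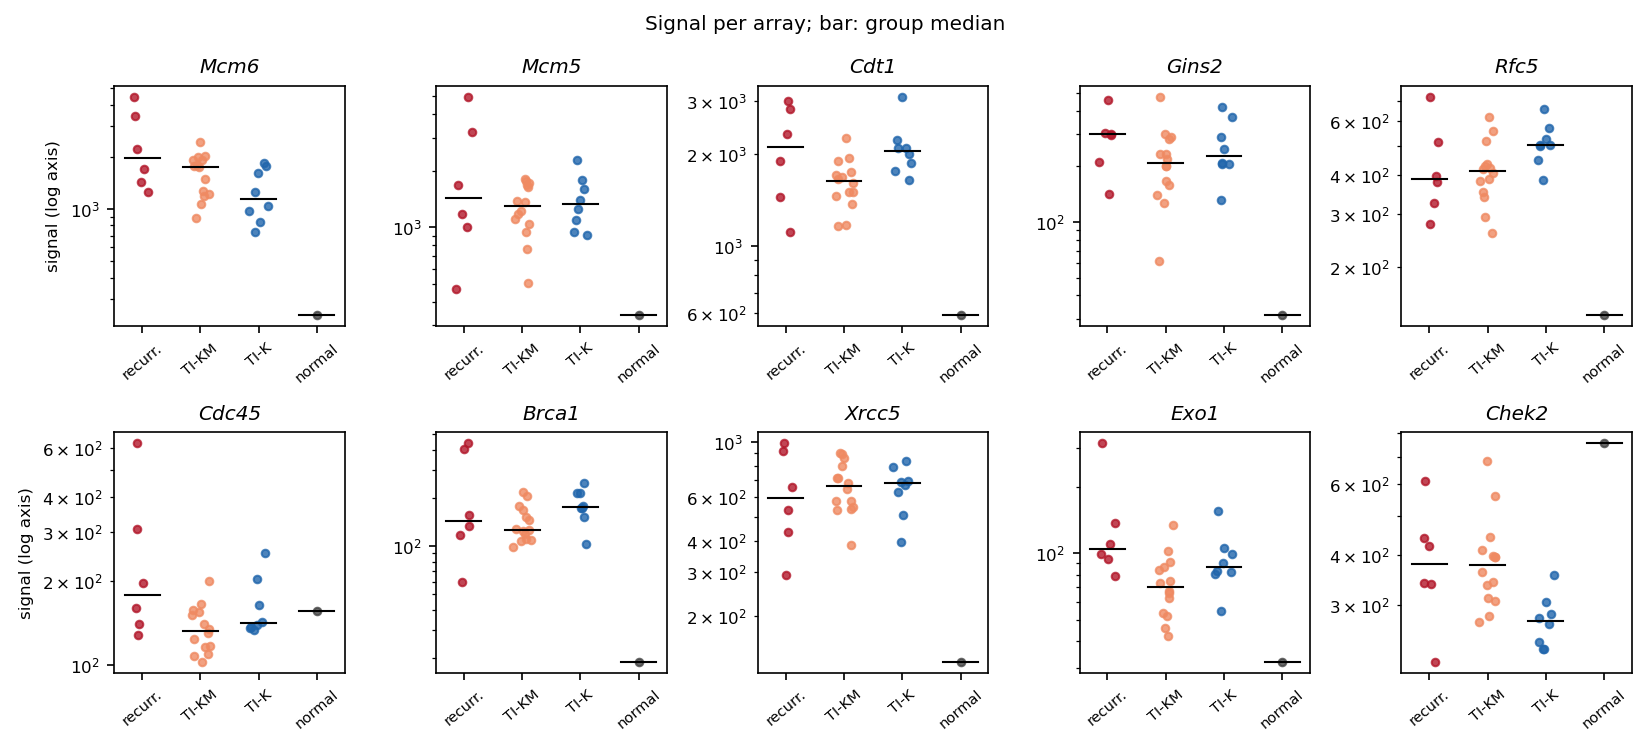
MAS5 signal of 10 members, each by its chosen probe set, on every array (log axis; points are arrays, bars the group medians), with TI-KM recurrences at the left, then TI-KM primaries, TI-K primaries and the normal lung. Mcm6, Mcm5, Cdt1, Gins2, Rfc5, Brca1, Xrcc5 and Exo1 lie above the normal lung in all 28 tumours, Chek2 lies below it in all 28, and the normal Cdc45 signal of 156 lies inside the range of each tumour group.

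Of the repair genes, Xrcc5 and Brca1 rose in each tumour group, Exo1 in recurrences, and Chek2 fell in TI-K primaries. In recurrences 3 of 16 rose and none fell, in TI-KM primaries 2 rose and none fell, and in TI-K primaries 2 rose and 1 fell, with unadjusted counts of 6, 5 and 6, over the background of 6.46% of all genes higher and 6.09% lower in recurrences, 7.75% and 7.16% in TI-KM primaries and 6.74% and 6.79% in TI-K primaries. Median log2 differences of the 16 were 0.52 in recurrences, 0.37 in TI-KM primaries and 0.40 in TI-K primaries, where all genes had 0.14, 0.10 and 0.00. Xrcc5 encodes the larger Ku subunit, which binds broken ends for end joining. Its signal was 293 to 984 in recurrences (median 595), 387 to 903 in TI-KM primaries (median 665) and 397 to 840.5 in TI-K primaries (median 681), against 131 in the normal lung, so no tumour overlapped the normal value. The differences were 2.00 ± 0.45 (4.01-fold, limma adjusted p = 0.00254), 2.15 ± 0.43 (4.45-fold, 0.000621) and 2.12 ± 0.44 (4.35-fold, 0.00104). Brca1, which acts in homologous recombination, had 59.7 to 438 in recurrences (median 144), 99.4 to 218 in TI-KM primaries (median 127) and 103 to 248.6 in TI-K primaries (median 176), against 18.9. In the same order it rose by 2.33 ± 0.56 (limma adjusted p = 0.00531), 2.02 ± 0.54 (0.00941) and 2.34 ± 0.55 (0.00377). The normal signal lies below the offset of 20, and the differences were 2.89, 2.58 and 2.93 with an offset of 5, and 1.27, 1.01 and 1.23 with 100, where the call in TI-KM primaries was lost (limma adjusted p = 0.0704). Exo1, the nuclease of mismatch repair and end resection, had 79.0 to 315 in recurrences and 32.1 in the normal lung, a difference of 1.48 ± 0.49 (adjusted p = 0.0461 by limma) whose call was lost with an offset of 100 (0.79, 0.0819) and on leaving out recurrence 1 (1.23) or 5, or any 1 of TI-KM primaries 1, 6, 7, 10, 12 and 14 or TI-K primaries 1, 3, 4, 7 and 8. Chek1, the kinase that restrains origins under replication stress, was above normal in every tumour by its chosen probe set, without a call. It had 117 to 788 in recurrences, 159.9 to 539.9 in TI-KM primaries and 259 to 518 in TI-K primaries, against 102.

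Chek2, the kinase downstream of Atm, went the other way. It had 217 to 607 in recurrences (median 379), 272 to 682 in TI-KM primaries (median 378) and 233 to 356 in TI-K primaries (median 274), against 754.5 in the normal lung. All 28 tumours were lower than normal, and the test was passed in TI-K primaries (-1.40 ± 0.38, 2.64-fold lower, limma adjusted p = 0.0116) but not in TI-KM primaries (-0.95, 0.086) or recurrences (-0.97, 0.102). Whether those differences differ from each other is the TI-KM against TI-K comparison below, where Chek2 was not called. Rad51ap1 was also below normal in all tumours, with medians of 149.965 in recurrences, 126 in TI-KM primaries and 288 in TI-K primaries, against 521, by the chosen probe set 1417938_at (-1.93, -1.74 and -0.82), and was not called. Its other probe sets differ: by 1448899_s_at the recurrences lay between 47.2 and 339.7, against 274.5 in the normal lung, and by 1417940_s_at the differences were 0.67, 0.38 and 0.21. Parp1, the sensor of strand breaks, had medians of 1122, 1182 and 1163, against 2195 (TI-K minus normal -0.93, limma adjusted p = 0.134). The 5 recombination genes had median differences of 0.15 in recurrences, 0.25 in TI-KM primaries and 0.49 in TI-K primaries, and the 4 checkpoint kinases -0.02, -0.24 and 0.19. The Fanconi genes Fanca and Fancd2 had 0.92, 0.75 and 0.33, and the pair of Msh6 and Exo1 had 1.22, 0.76 and 1.003. Xrcc1, Xrcc5 and Parp1, the genes of break and nick repair, had -0.42, -0.04 and 0.22.

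Arrays were also counted in place of fitted differences, by the chosen probe sets. Of 31 replication members 9 (29.03%) were above the normal lung in all 28 tumours and none was below it in all, against 12.6% above and 12.4% below among all genes. Those 9 were Mcm5, Mcm6, Cdt1, Gins2, Pold1, Pole, Prim2, Rfc5 and Lig1. Of these, Mcm5 (1459658_at) and Pold1 (1448187_at) each had another probe set that overlapped the normal value in TI-KM primaries. For repair, 4 of 16 (25%) were above in all tumours, Brca1, Exo1, Chek1 and Xrcc5, and 2 (12.5%), Rad51ap1 (by its chosen probe set) and Chek2, were below. Other probe sets of Brca1, Exo1 and Chek1 overlapped the normal value. TI-K primaries had 13.3 to 75.9 for Exo1 (1418027_at), against 30.1 in the normal lung. For Brca1 (1427698_at) they had 40.6 to 76.1, against 69.5. For Chek1 (1450677_at) recurrences had 27.8 to 257, against 47.3. In the 18 tumours outside the high-18S set the counts above normal were 16 of 31 (51.6%) and 5 of 16 (31.2%), against 20.2% of all genes. Those shares rest on 1 normal array.

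With the remaining arrays alone, where 18S was low, more members passed. In the 2 recurrences 12 replication members rose and 5 repair members rose with 1 lower, over a background of 11.1% of genes higher and 9% lower. In the 8 TI-KM primaries 12 replication members rose, with 4 repair members higher and 2 lower, over 14.1% and 12.2%. In the 3 TI-K primaries 13 rose, with 3 repair members higher and 1 lower, over 12.7% and 11.1%. Mcm3, Mcm7, Pcna, Chaf1b and Chek1 were called in each of the 3, beside Mcm5, Mcm6, Cdt1, Gins2, Rfc5, Lig1, Brca1 and Xrcc5, and Chek2 was lower in each. Fen1 was not called there in TI-K primaries (-1.15, limma adjusted p = 0.154). With the high-18S arrays alone, on whose side the normal lung lies by its 18S signal, fewer members passed by the chosen probe sets. In the 4 recurrences 4 replication members rose (Mcm6, Orc1, Cdt1 and Gins2) and Fen1 fell, and 1 repair member rose (Xrcc5) with 0 lower, over a background of 6.96% of genes higher and 4.87% lower. In the 6 TI-KM primaries 3 replication members rose (Mcm6, Orc1 and Gins2) and Fen1 fell, and 2 repair members rose (Fancd2 and Xrcc5) with 0 lower, over 9.37% and 5.77%. In those arrays Mcm6 was above the normal lung by 3.05 in recurrences and 2.74 in TI-KM primaries, Gins2 by 2.67 and 2.38 and Xrcc5 by 1.67 and 1.88. Without recurrence 1, the recurrences kept 6 replication members higher than normal (Mcm5, Mcm6, Cdt1, Gins2, Rfc5, Lig1) and 2 repair members (Brca1, Xrcc5), with medians of 0.75 and 0.43 over a background of 7.68% higher and 6.87% lower.

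Promoter windows are shown for the replication and repair members with the smallest p in TI-K primaries against normal lung, Cdt1, Rfc5 and Xrcc5, and for Mcm6, picked after its values were seen because its window holds several E2F-type motifs. Each is RefSeq sequence (build GRCm38.p6), 250 bases before to 50 after the gene's annotated start, printed 5′ to 3′ on the gene's strand, with capitals for E2F-type motifs: TTTCCCGC, TTTCGCGC, TTTGCCGC or TTTGGCGC on either strand.
Cdt1, chr8:122567765-122568064, plus strand: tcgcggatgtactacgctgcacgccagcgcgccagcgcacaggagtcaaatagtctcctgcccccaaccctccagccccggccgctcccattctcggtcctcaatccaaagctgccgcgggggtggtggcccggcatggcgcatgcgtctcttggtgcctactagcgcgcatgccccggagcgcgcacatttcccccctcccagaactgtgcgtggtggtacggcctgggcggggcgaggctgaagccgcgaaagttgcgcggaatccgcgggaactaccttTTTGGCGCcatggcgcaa
Mcm6, chr1:128359656-128359955, minus strand: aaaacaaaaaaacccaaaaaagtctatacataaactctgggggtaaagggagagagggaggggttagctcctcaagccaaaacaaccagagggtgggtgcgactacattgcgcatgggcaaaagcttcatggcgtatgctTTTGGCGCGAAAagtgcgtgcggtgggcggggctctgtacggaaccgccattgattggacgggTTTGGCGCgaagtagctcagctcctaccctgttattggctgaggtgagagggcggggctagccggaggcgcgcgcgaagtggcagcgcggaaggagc
Rfc5, chr5:117388974-117389273, minus strand: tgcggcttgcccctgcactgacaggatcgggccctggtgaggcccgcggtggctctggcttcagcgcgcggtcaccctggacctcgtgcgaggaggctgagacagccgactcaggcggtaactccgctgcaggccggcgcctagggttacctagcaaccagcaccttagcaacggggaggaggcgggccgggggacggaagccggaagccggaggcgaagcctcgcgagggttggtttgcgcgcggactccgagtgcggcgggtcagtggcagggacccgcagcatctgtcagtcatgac
Xrcc5, chr1:72307171-72307470, plus strand: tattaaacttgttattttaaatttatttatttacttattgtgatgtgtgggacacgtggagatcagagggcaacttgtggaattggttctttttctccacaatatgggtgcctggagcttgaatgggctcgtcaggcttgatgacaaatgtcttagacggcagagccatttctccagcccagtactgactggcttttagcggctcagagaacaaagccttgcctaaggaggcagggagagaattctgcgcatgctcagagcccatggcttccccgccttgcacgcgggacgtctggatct
The Cdt1 window holds 1 such motif close to its 3′ end, and the Mcm6 window holds 3, of which 2 overlap on opposite strands. The Rfc5 and Xrcc5 windows hold none, although both genes rose in every tumour group, and a missing match says only that these letters are not in this window. Windows were found for 40 of the 48 listed genes. An E2F-type motif was present in 11 of 26 replication windows (42.3%: Mcm3, Mcm5, Mcm6, Mcm7, Orc1, Cdc6, Cdt1, Pola1, Pold1, Rfc3 and Lig1) and 3 of 14 repair windows (21.4%: Brca2, Msh6 and Chek2), against 2.605% of 27025 promoter windows. Of the members called higher than normal lung that have a window, Rfc5, Xrcc5 and Brca1 hold no such motif, while Mcm5, Mcm6, Cdt1 and Lig1 do. The pentamer CCAAT, on either strand, was in 17 of 26 replication windows (65.4%) and 10 of 14 repair windows (71.4%), against 41.1% of all windows. A motif match describes letters and was not tested as a bound site.

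Other genes of the same pathways, listed by role with earlier results of these data known, gave few calls against normal lung, to be read against the 6.46%, 7.75% and 6.74% of all genes called higher in recurrences, TI-KM primaries and TI-K primaries. Of 50 further replication genes 47 were measured. In recurrences 3 rose and none fell: Dbf4, the activator of the Cdc7 kinase that fires origins (1.87, limma adjusted p = 0.00456), Clspn, the claspin adaptor of Chek1 (1.79, 0.00734), and the helicase Mcm9 (0.98, 0.0478). Dbf4 (1.55 and 1.66) and Clspn (1.38 and 1.39) were also the 2 that rose in TI-KM primaries and in TI-K primaries, with adjusted p of 0.0116 and 0.00889 for Dbf4 and 0.0281 and 0.0329 for Clspn. Medians of the 47 were 0.33 in recurrences, 0.29 in TI-KM primaries and 0.35 in TI-K primaries. Of 97 further repair genes 82 were measured. The mismatch repair gene Pms2 rose in all 3 groups (1.68, 1.66 and 2.09, limma adjusted p 0.0306, 0.0215 and 0.00505). The histone gene H2ax rose in recurrences (1.37, 0.0332) and the translesion polymerase gene Polk in TI-KM and TI-K primaries (0.79, 0.0455 and 1.06, 0.00846). The ubiquitin-conjugating enzyme gene Ube2t of the Fanconi pathway rose in TI-K primaries (1.19, 0.0438), and Alkbh3, a demethylase that repairs alkylated bases, fell by 0.92 in recurrences (limma adjusted p = 0.0396) and by 0.83 in TI-KM primaries (0.0478). Medians of these 82 were 0.01, 0.11 and 0.16.

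Markers of dividing cells moved alongside. Of 11 proliferation markers measured out of 12 listed, 5 rose in recurrences, 5 in TI-KM primaries and 6 in TI-K primaries, with medians of 1.98, 1.69 and 1.68. In TI-K primaries the 6 were Birc5 (2.68, limma adjusted p = 0.0037), Cdc20, Cdk1, Ccna2, Plk1 and Bub1. Mki67, which encodes the Ki-67 antigen of cycling cells, had signals of 188 to 4127 in recurrences (median 662), 378 to 1437 in TI-KM primaries (median 821) and 706 to 2381 in TI-K primaries (median 1043), against 365 in the normal lung. It was not called (0.87, 1.08 and 1.53, limma adjusted p 0.559, 0.437 and 0.25). The part of these markers in the replication results was not tested.

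**Figure D3:**
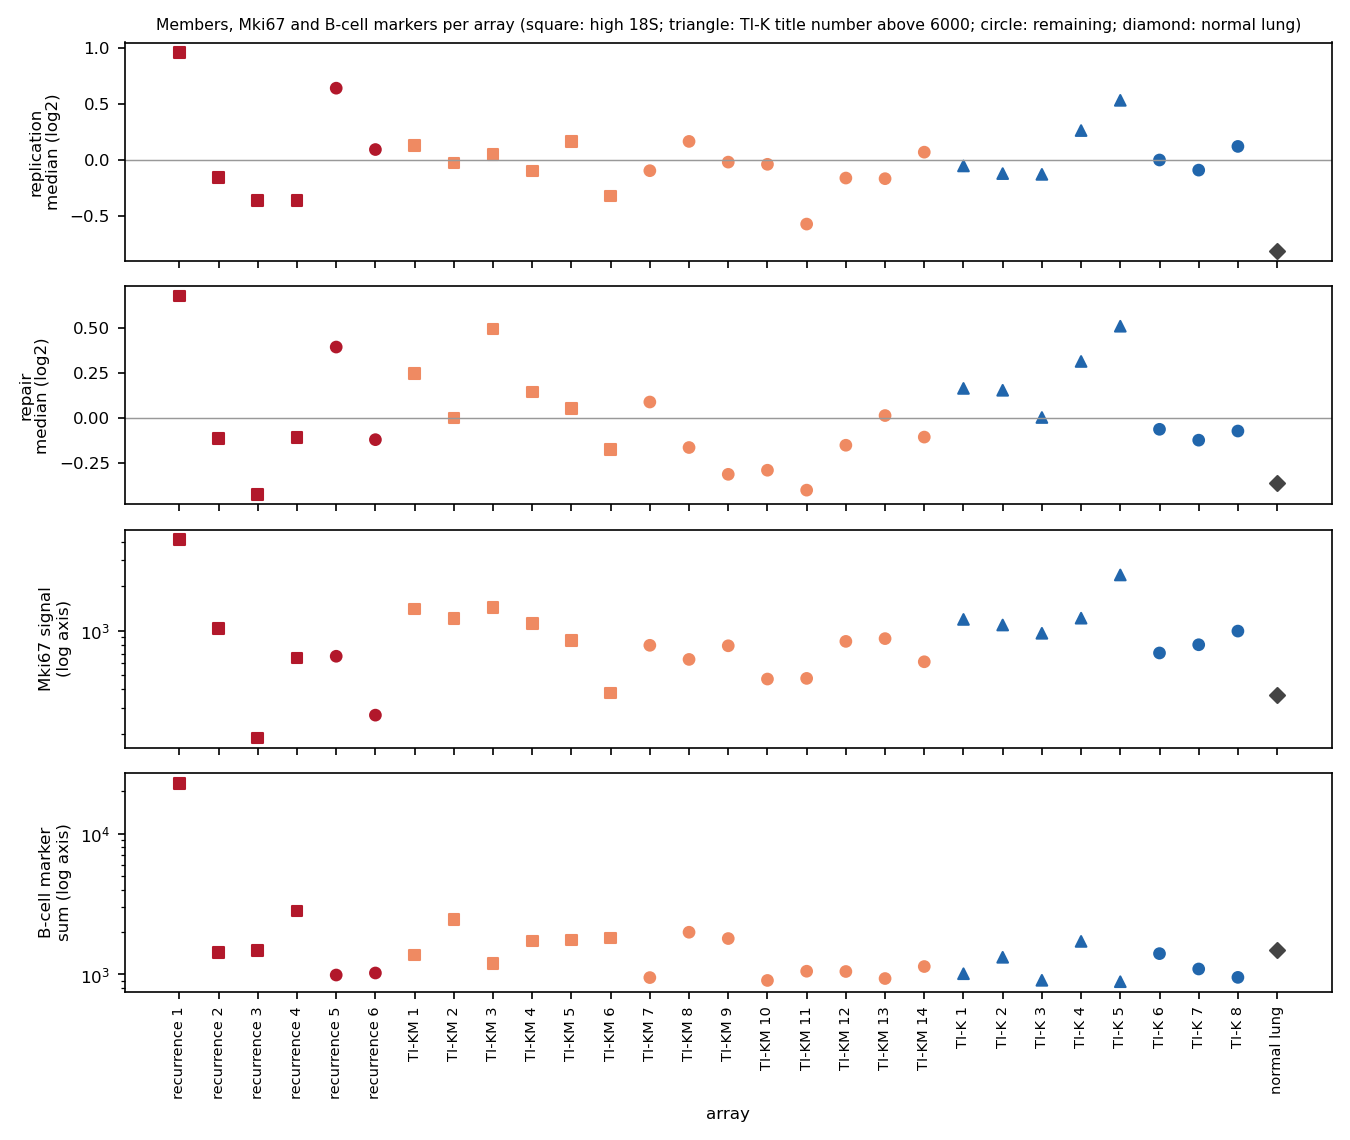
Per array: median of the replication members and of the repair members (each gene's log2 value minus its mean over the tumour arrays), Mki67 signal and summed B-cell marker signal; squares are high-18S arrays, triangles TI-K primaries with title numbers above 6000, circles the remaining arrays and the diamond the normal lung. Recurrence 1 is the highest array for replication (0.96), Mki67 (4127) and B-cell markers (22745), and the normal lung has a replication median of -0.81.

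TI-KM primaries against TI-K primaries ask what the Mad2 transgene adds in primary tumours, and here the members hardly differed. By the chosen probe sets, of 31 replication members none rose and 1, Orc6, fell, and of 16 repair members none was called in either direction, over a background of 5.5% of genes higher and 2.49% lower. Calls of the other probe sets are given below. At an unadjusted p below 0.05 there were 6 replication and 4 repair members. The medians were -0.19 and -0.25, where the median of all genes was 0.08, and 8 of 31 and 6 of 16 lay above 0. Orc6 had 244 to 757 in TI-KM primaries (median 363) and 396 to 861 in TI-K primaries (median 584), and 9 of 14 TI-KM primaries were below every TI-K primary. The difference was -0.58 ± 0.18 (1.5-fold lower, limma adjusted p = 0.0459). The call was lost in 16 of 28 fits that each left out 1 tumour array, namely any of TI-K primaries 1 to 5, TI-KM primaries 1 to 7, 9, 11 and 14, or recurrence 4, with a limma adjusted p of up to 0.11. The other members with the smallest p were Atm (-0.51, limma adjusted p = 0.0551), Chek2 (0.45, 0.0694), Fen1 (0.54, 0.0797), Rad51ap1 (-0.92, 0.0971), Gins1 (-0.53, 0.0976), Pole (-0.89, 0.1), Cdt1 (-0.37, 0.116), Mcm4 (0.50, 0.131) and Atr (-0.34, 0.15). Cdc45 had -0.22 (0.484).

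The sets of arrays bear on that comparison, because no TI-K primary lies in the high-18S set and no TI-KM primary has a title number above 6000. With the sets as a block, 0% of all genes and none of the members were called by limma (0 replication and 2 repair members at an unadjusted p below 0.05), Orc6 came to -0.15 (adjusted p = 0.995) and the medians to -0.06 for both lists. In the remaining arrays alone, 8 TI-KM and 3 TI-K primaries, limma called no member (0 and 2 unadjusted), nor any other gene (0% higher and 0% lower), and the medians were -0.10 and -0.15. Elsewhere in the pathways, Rnaseh2c (0.57, limma adjusted p = 0.0257), Fancf (0.73, 0.00661) and Mlh3 (0.60, 0.0224) were called higher and Orc3 (-0.45, 0.0238), Ddb2 (-1.07, 0.0106) and Rev3l (-0.53, 0.0136) lower in TI-KM primaries, and with the block each had an adjusted p of 0.995. Of the further genes 1 of 47 replication and 3 of 82 repair genes were higher and 1 and 3 lower, with medians of -0.11 and -0.06.

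Relapsed and primary tumours of the TI-KM genotype were compared next. No member of either list was called by limma in any direction, over a background of 0.0411% of genes higher and 0.219% lower, and 3 replication and 2 repair members had an unadjusted p below 0.05. The medians were 0.15 and 0.04, where all genes had 0.04, and 21 of 31 and 9 of 16 members lay above 0. Exo1 had signals of 315, 94.6, 99.2, 109.6, 138 and 79.0 in the 6 recurrences, against 42.01 to 134 in TI-KM primaries (median 70.5). Recurrences 1 and 5 were above every TI-KM primary, and the difference was 0.67 ± 0.22 (limma adjusted p = 0.2). Cdc45 had 624, 160, 128, 140, 308 and 196 in the recurrences, against 102 to 199 in TI-KM primaries (median 132), again with recurrences 1 and 5 above all primaries, and a difference of 0.64 ± 0.22 (0.202). Pola1, the catalytic subunit of polymerase alpha, had 184 to 792 in recurrences and 145 to 319.6 in TI-KM primaries (0.61 ± 0.21, limma adjusted p = 0.221), and Pcna 2566 to 8338 and 1099 to 4457 (0.53 ± 0.22, 0.329). The next by p were Atm (0.46 ± 0.19, 0.313), Mcm6 (0.47 ± 0.24, 0.427), Rfc3 (-0.35, 0.458), Pole (0.72 ± 0.39, 0.46), Xrcc1 (-0.38, 0.544) and Fanca (0.27, 0.623).

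Recurrence 1 had the highest value of the 6 for most members. Without it the medians of the replication and repair members came to 0.00084 and 0.0039, 16 of 31 and 8 of 16 members lay above 0, and Cdc45 had 0.36 (limma adjusted p = 0.531). No member was called by limma then either, with 2 and 3 at an unadjusted p below 0.05, over a background of 0.00685% of genes higher and 0.0753% lower. Over all genes, 1415 of 14602 had an unadjusted p below 0.05 in that fit. In the remaining arrays alone, which hold recurrences 5 and 6 and 8 TI-KM primaries but not recurrence 1, 26 of 31 replication and 14 of 16 repair members lay above 0, with medians of 0.40 and 0.34 and 12 and 3 members at an unadjusted p below 0.05, where all genes had a median of 0.02. Limma called none of the members there, over 0.0137% of genes higher and 0.0685% lower. In the high-18S arrays alone the medians were 0.09 and -0.17. With the sets as a block they were 0.16 and 0.01, with 5 and 3 unadjusted and none called, while 0.699% of all genes were. None of the further replication or repair genes was called by limma (6 and 12 unadjusted), and their medians were 0.11 and -0.02.

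**Figure D4:**
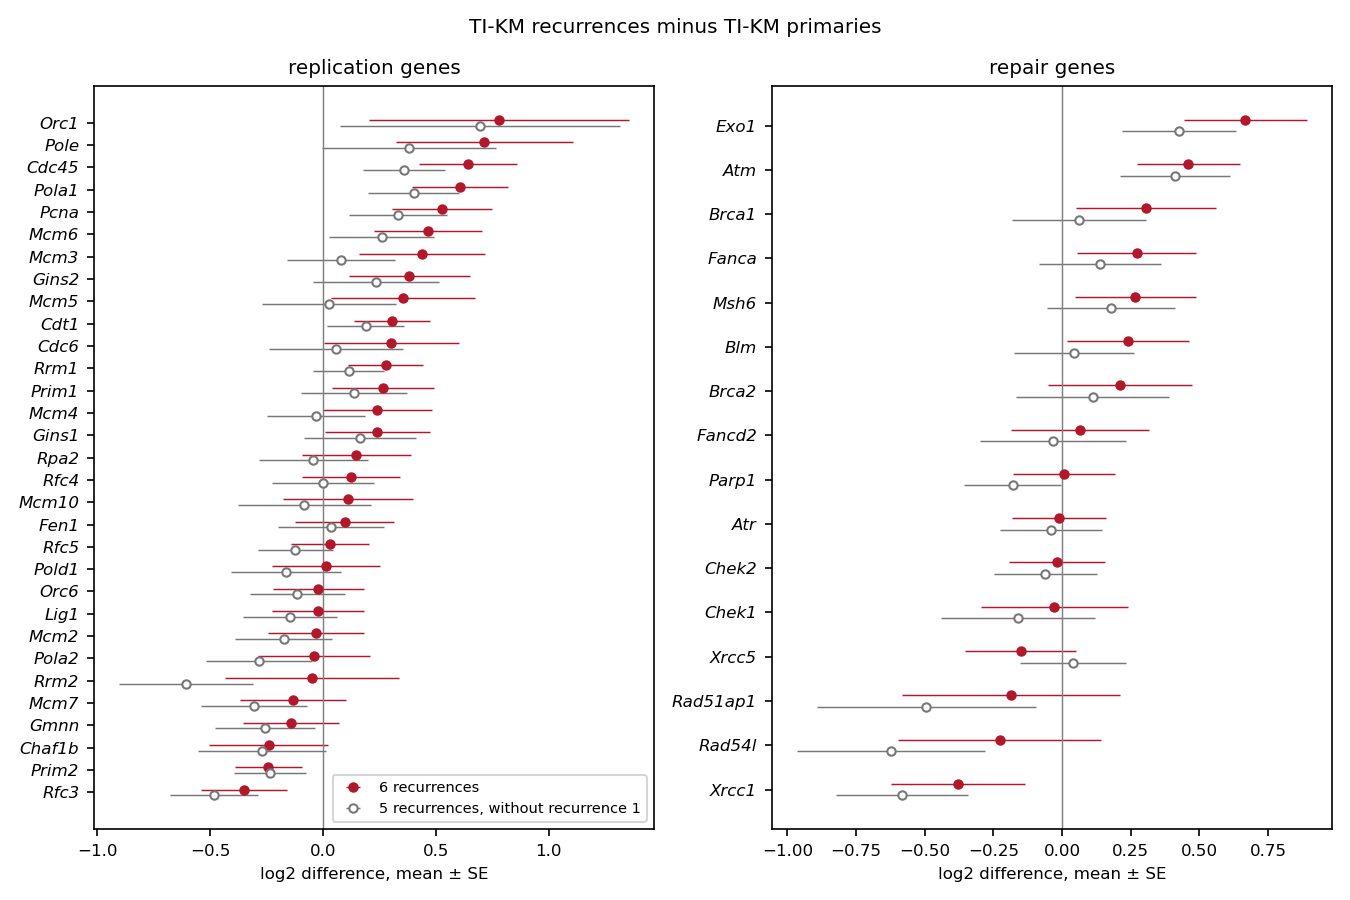
Log2 difference between TI-KM recurrences and TI-KM primaries for each member (bars 1 SE), with all 6 recurrences and with the 5 left when recurrence 1 is taken out. No point has an adjusted p below 0.05, and the replication median of 0.15 with all 6 recurrences moves to about 0 with 5.

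TI-KM recurrences against TI-K primaries differ in both relapse and transgene, and they share arrays with the comparisons above. By the chosen probe sets, of 31 replication members 2 rose and 1 fell, and of 16 repair members none was called (4 unadjusted), over a background of 12.2% of genes higher and 6.64% lower. The medians were 0.12 and -0.02, with 0.11 over all genes. Mcm6 (1249 to 4435 in recurrences, against 732 to 1851 in TI-K primaries) rose by 0.85 ± 0.26 (1.8-fold, limma adjusted p = 0.0263). Mcm4 had 2168 to 10719.8 in recurrences, against 1537 to 3155 in TI-K primaries, and rose by 0.74 ± 0.27 (1.68-fold, 0.0492). Rfc3, a clamp loader subunit, was 47.3 to 162 in recurrences and 117 to 239 in TI-K primaries, with 5 of 6 recurrences below every TI-K primary, and fell by 0.67 on the log2 scale (SE 0.211, 1.59-fold lower, limma adjusted p = 0.0279). Each of these 3 calls rests on single arrays: Mcm6 lost its call without recurrence 1, 2 or 5 or TI-K primary 3, Rfc3 without recurrence 2 or 4 or TI-K primary 1 or 5, and Mcm4 without recurrence 1, 2, 4 or 5, any of TI-K primaries 1 to 5 and 7, or TI-KM primary 1, 7, 8, 9, 10, 12, 13 or 14. Without recurrence 1, Mcm6 (0.64, limma adjusted p = 0.0873) and Mcm4 (0.47, 0.172) were no longer called, no replication member was higher, Orc6 and Rfc3 were lower, and so were Rad51ap1 and Xrcc1 among the repair genes, over 7.8% of genes higher and 5.66% lower. In that fit 8 replication and 4 repair members had an unadjusted p below 0.05, as did 4623 of 14602 genes. With the sets as a block, where 0.0959% of all genes were called, no member was (1 and 2 unadjusted): Mcm6 had 0.55 (limma adjusted p = 0.617), Rfc3 -0.45 (0.585) and Mcm4 0.30 (0.811). With the ratio of 3′ to 5′ control signals, which averaged 1.32 in recurrences and 2.16 in TI-K primaries, as a covariate, 1 replication call was left, Mcm4 (0.92, limma adjusted p = 0.0479), while Mcm6 (0.78, 0.0875) and Rfc3 (-0.59, 0.0996) were not called, over 6.62% of genes higher and 3.94% lower. Orc6 (-0.60, 0.0547), Fen1 (0.64, 0.0622), Fanca (0.65, 0.0526), Rad51ap1 (-1.10, 0.0725), Xrcc1 (-0.64, 0.0883), Chek2 (0.43, 0.109), Mcm7 (-0.50, 0.161) and Cdc45 (0.43, 0.202) were not called by limma. Of the further genes 1 of 47 replication genes was higher (Rnaseh2a, 0.58, limma adjusted p = 0.0199) and 4 lower, the origin recognition subunits Orc4 (-1.08, 0.00134) and Orc3 (-0.60, 0.00722) and the nuclease Dna2 (-0.92, 0.0135) first. Of 82 repair genes 5 were higher and 15 lower, led by Ddb2, the damage sensor of nucleotide excision repair (-1.82, 0.000362), Rev3l (-0.79, 0.00154), Rev1 (-1.17, 0.00217) and Polk (-0.64, 0.00406), the last 3 all translesion polymerases. None of these was called with the block, and the proliferation markers gave no limma call among the tumour groups (0, 1 and 0 unadjusted for recurrences against TI-KM primaries, TI-KM against TI-K primaries and recurrences against TI-K primaries).

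Several probe sets stand for most of these genes, and they did not always move together. The 47 measured members have 109 probe sets, of which 90 passed the filter, and 30 members had several. In TI-K primaries against normal lung, 6 of 21 replication and 5 of 9 repair members with several probe sets had differences of both signs, and the median range between a gene's probe sets was 0.55 and 0.87. Tested by probe set over 26221, 15 of 59 replication probe sets in 12 of 31 members were higher and 1 was lower, and 2 of 31 repair probe sets were higher and 1 lower, over 5.25% and 5.37% of all probe sets. Mcm2, Mcm3, Mcm5 and Prim1 are among those 12 although the chosen probe set of each was not called. All of these genes had a called probe set in recurrences too, and Mcm5 and Prim1 also in TI-KM primaries. Mcm2 by 1448777_at had 179 to 1152 in recurrences, 230 to 537 in TI-KM primaries and 268 to 906.8 in TI-K primaries, against 102 in the normal lung, with no tumour overlapping (TI-K minus normal 2.07, limma adjusted p = 0.0236), whereas 1434079_s_at gave 0.18. Mcm3 had 5 probe sets from 0.02 to 2.83, while the 4 of Mcm7 lay close together, from 1.32 to 1.40, and the pair of Cdt1 gave 1.77 and 1.75. Fen1 was the sharpest case. By 1436454_x_at it fell by 1.57, and by 1421731_a_at, with signals of 225 to 689 in recurrences, 133 to 267 in TI-KM primaries and 169 to 293 in TI-K primaries, against 49.6 in the normal lung, it rose by 1.68 (limma adjusted p = 0.00408). These data thus give no direction for Fen1 against the normal lung. Both probe sets lay above 0 in TI-KM against TI-K primaries (0.04 and 0.54) and in recurrences against TI-KM primaries (0.10 and 0.65). Brca1 by 1427698_at had -0.19, against 2.34 by the chosen probe set, and Parp1's other probe sets had 0.12, -0.05 and 0.08, against -0.93. In TI-KM against TI-K primaries, 2 of 59 replication probe sets were higher (Mcm3, Chaf1b) and 1 lower (Orc6). Of 31 repair probe sets 1 was lower (Atm). In recurrences against TI-K primaries, 6 replication probe sets were higher (Mcm3, Mcm4, Mcm5, Mcm6, Fen1, Chaf1b) and 3 lower (Orc6, Rfc3, Rfc4). Of the repair probe sets 1 was higher (Fanca) and 3 lower (Atr, Parp1). By gene, the backgrounds were 5.5% and 12.2% higher, and 2.49% and 6.64% lower. Shares over all probe sets are not given for these comparisons, so the probe set counts have no like background.

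Cdc45 also gave opposite answers. By 1416575_at, the brighter probe set used above, recurrences were higher than TI-KM primaries by 0.64, and by 1457838_at they were lower, at -1.01 (limma adjusted p over probe sets 0.178 and 0.179). The signals of 1457838_at were 211, 103, 28.3, 50.6, 61.3 and 22.2 in the 6 recurrences, 57.6 to 468 in TI-KM primaries (median 113) and 91.2 to 155 in TI-K primaries (median 128), against 205 in the normal lung. Recurrence 1 is the highest recurrence by both probe sets, and across the arrays their correlation was 0.13. Against TI-K primaries the recurrences had 0.43 by the first and -0.81 by the second (0.192 and 0.11), and against the normal lung 0.45 and -1.43. TI-KM against TI-K primaries gave -0.22 and 0.19. For Cdc45 these data give no direction in recurrences, and none of its differences passed the test.

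**Figure D5:**
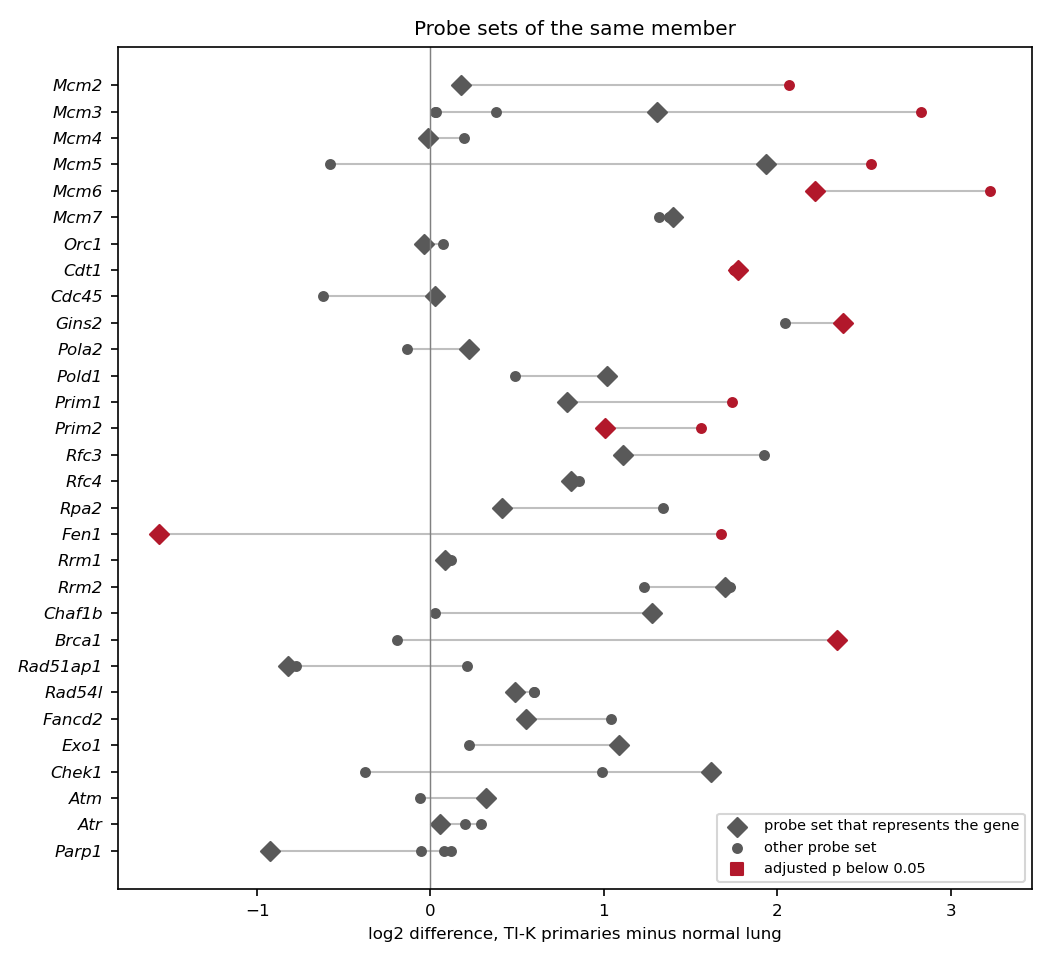
Log2 difference of TI-K primaries from the normal lung for every probe set of the members with several (diamonds, the probe set used for the gene; red, adjusted p below 0.05 over all probe sets). Fen1 has a called probe set on each side of 0, at -1.57 and 1.68, and the 4 probe sets of Mcm7 fall between 1.32 and 1.40.

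Within the tumours the replication members varied together. After removing each group's and set's mean, the median pairwise correlation over 28 arrays was 0.47 among replication members (465 pairs, 96.6% above 0), 0.24 among repair members (120 pairs), 0.33 between the lists and 0.00 among 1000 genes drawn evenly by name. The 15 pairs of MCM2-7 subunits had a median of 0.76, from 0.59 to 0.92. Arrays share their scaling and RNA quality, and recurrence 1 adds to these values: without it the medians were 0.33 for replication, 0.15 for repair and 0.67 for the MCM pairs. With Mki67, the correlation was 0.89 for Mcm7, 0.88 for Mcm5, 0.88 for Mcm3, 0.86 for Mcm4, 0.85 for Rrm2, 0.79 for Cdc45 and 0.78 for Chek1, and near 0 for Orc6 (0.09), Prim2 (0.07), Orc1 (0.03) and Fancd2 (-0.03), with -0.29 for Xrcc5. Of the genes called higher in every tumour group, Xrcc5 thus had the lowest of these correlations with Mki67. The correlations with Mki67 include recurrence 1 and were not computed without it. Its Mki67 signal was 4127, against 188 to 1039 in recurrences 2 to 4, the others of its group and set. In TI-KM primaries the relation with Mki67 was tested within each set, and none passed. In the 8 remaining arrays Pearson's r was 0.29 for Mcm5 (exact permutation p = 0.464), 0.48 for Rrm2 (0.254), 0.11 for Brca1 (0.808) and 0.15 for Parp1 (0.802), with Spearman's rho of 0.02 (0.977), 0.31 (0.462), 0.02 (0.977) and 0.10 (0.84). In the 6 high-18S arrays r was 0.88 (exact permutation p = 0.103), 0.76 (0.0722), 0.37 (0.5) and 0.92 (0.128), with rho of 0.66 (0.175), 0.66 (0.175), -0.09 (0.919) and 0.60 (0.242). Adjusted over these 8 relations, the two-sided exact permutation p lay between 0.341 and 0.808 for r and between 0.644 and 0.977 for rho. With the 2 arrays farthest from the median Mki67 left out, r in the remaining arrays was -0.70, -0.28, -0.45 and 0.01, so those relations rest on these arrays. In the high-18S arrays it was 0.95, 0.84, 0.10 and 0.69 over 4 arrays.

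Spread differed between the groups. The median SD over members on the log2 scale was 0.63 for replication and 0.61 for repair in recurrences (all genes 0.51), 0.44 and 0.42 in TI-KM primaries (0.47), and 0.37 and 0.34 in TI-K primaries (0.34). Without recurrence 1 it was 0.57 and 0.50 in recurrences (0.46). Rrm2 ran from 241 to 5730.4 in recurrences, 366 to 2130.1 in TI-KM primaries and 531 to 1427 in TI-K primaries. Recurrence 3 was the lowest recurrence in 18 of 31 replication members, so the recurrences held both the highest and some of the lowest tumours, and the replication medians of recurrences 1 to 6 on the centred scale were 0.96, -0.15, -0.36, -0.36, 0.64 and 0.09. Recurrence 5 was highest in 5 replication and 5 repair members. Among TI-K primaries, number 5 was highest in 16 of 31 replication and 11 of 16 repair members, with the group's highest Mki67 (2381). Among TI-KM primaries, number 11 was lowest in 11 replication members and number 3 highest in 8 members of each list.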

How the data were processed

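RNA of 29 arrays (6 TI-KM recurrences, 14 TI-KM primaries, 8 TI-K primaries and 1 normal lung) was extracted with RNeasy and labelled after a 2-cycle target preparation, per the labels' protocols. The deposited values are linear intensity signals made by the authors with MAS5, per the submitters' processing notes. No version of MAS5 is stated there. The values fit 1 target, a 2% trimmed mean of 500.003 on each array. The series text names a MOE430A 2.0 array, while the table holds 45101 probe sets. Of these 34945 name 1 gene in the platform annotation, 932 name several and were not used, and 64 are hybridization controls. Depth does not apply to arrays, and their number per group limits the precision.

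The analysis took log2(signal + 20), kept probe sets above the 40th percentile of their own array in at least 6 arrays (26221), and used for each gene the passing probe set with the highest mean, giving 14602 genes. One limma fit with 4 groups and a variance trend (R 4.3.3, limma 3.58.1) gave all 6 comparisons, with Benjamini-Hochberg adjustment over all genes and a threshold of 0.05. It was tested on simulated data. Correlations used exact permutations (scipy 1.17.1). Alternatives were another scaling, quantile normalization, offsets of 5 and 100, other filters, no variance trend, other probe sets, the 2 groups alone, sets of arrays split at an 18S signal of 12000 or a title number of 6000, the 3′/5′ ratio as a covariate, the 2 tumours with title number 76 averaged, and leaving out each array. The members and lists were chosen with earlier results of these data known. Named with statistics are, per comparison, the 6 replication and 4 repair members with the smallest p, Cdc45, up to 4 called genes of each further list, and Mki67, with other members by their values.

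Marker lists of other cell types were summed per array as a description. Beyond the sums in the report, the macrophage sum (8 of 8 markers) was 19056 in the normal lung, with tumours from 25341 to 85688. The fibroblast sum (6 of 6) was 25936, with tumours from 4790.5 to 24546, and the erythroid sum (3 of 6) 4726, with tumours from 94.5 to 743. That erythroid sum was nearly all Alas2 (4678). The normal signals of Hba-a1 (13.0) and Klf1 (35.5) lay inside the recurrence ranges, 10.6 to 105 and 29.7 to 255.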

Additional observations from a re-analysis of the deposited data

Results flagged for a closer look

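In groups of 4 to 10 arrays, 94 combinations of member and group were examined for 1 array far from the others (Dixon's 95% criterion), and 4 met it, all in TI-K primaries. Chance alone marks about 1 in 20 such groups, so 4 of 94 is no more than chance gives. Mcm7 reached 7054 in TI-K primary 5, where the next highest TI-K primary had 4296. Orc1 was at 20.02 in TI-K primary 7, where the next lowest had 85.0. Pcna was at 2307 in TI-K primary 1, where the next lowest had 3238. Fanca reached 264 in TI-K primary 5, where the next highest had 201. Recurrence 1, although the highest recurrence for most replication members, met the criterion for none of them.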

How the results depend on the processing

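Counts against the normal lung changed in size with several choices. TI-KM recurrences (6 replication members called) gave 2 with arrays scaled to a common median, 1 with the 2 groups alone and 12 in the remaining arrays, and their 3 repair calls became 0 with the 2 groups alone, 6 in the remaining arrays and 1 in the high-18S arrays. TI-KM primaries (6 replication) gave 2 with common-median scaling and 12 in the remaining arrays, and their 2 repair calls became 1 with an offset of 100 and 6 in the remaining arrays. TI-K primaries (8 replication) gave 4 with common-median scaling, 15 with the 2 groups alone and 13 in the remaining arrays, and their 3 repair calls became 5 with the 2 groups alone. Between TI-KM and TI-K primaries, the 1 replication call became 0 with common-median scaling, quantile normalization, no filter, the block, the remaining arrays or the 2 tumours of title number 76 averaged, and 2 with the 2 groups alone. The repair count of 0 there became 2 with quantile normalization, 2 with the 2 groups alone and 1 with the 3′/5′ covariate. Recurrences against TI-K primaries (3 replication) gave 1 with common-median scaling, 0 with the block, 0 in the remaining arrays and 1 with the covariate, and their repair count of 0 became 1 with common-median scaling, 2 with quantile normalization, 1 with an offset of 100 and 2 with the mean of all probe sets. Recurrences against TI-KM primaries gave 0 calls under every setting run. In the remaining and high-18S arrays fewer samples enter, and the cause of the other moves was not tested. Calls over all genes moved with the setting too. In TI-K primaries against normal lung 6.74% of genes were higher in the main fit, 4.21% with common-median scaling and 12.7% in the remaining arrays. For several other settings, and for most arrays left out below, no such share is given. Those counts therefore do not set the members apart from other genes.

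Leaving out 1 array gave replication counts of 0 to 0 for recurrences against TI-KM primaries, 0 to 3 for TI-KM against TI-K primaries (3 without TI-K primary 6), 0 to 4 for recurrences against TI-K primaries (0 without recurrence 2, 1 without recurrence 4 or TI-K primary 1, 3 or 5), and, against the normal lung, 5 to 9 for recurrences, 6 to 7 for TI-KM and 7 to 10 for TI-K primaries. The repair counts were 0 to 0, 0 to 2 and 0 to 3 (2 without recurrence 1 or 5, 3 without recurrence 6), and 2 to 3, 2 to 3 and 3 to 4.

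Some single genes changed sign. With the mean of all probe sets Cdc45 had -0.18 in recurrences against TI-KM primaries, -0.19 against TI-K primaries and -0.49 against the normal lung, and -0.30 in TI-K primaries against the normal lung. That last value was -0.16 in the remaining arrays, -0.02 without TI-K primary 4 and between -0.061 (without TI-K primary 5) and 0.058 (without TI-K primary 6) over all arrays left out. Fen1 in TI-K primaries against normal lung had 0.056 with the mean and 1.68 without x_at and s_at probe sets. Mcm7 in recurrences against TI-K primaries had 0.038 without those probe sets and 0.41 in the remaining arrays. In recurrences against TI-KM primaries, the remaining arrays gave 0.23 for Xrcc1 and -0.12 for Fanca, and with the block Atr had 0.039 in TI-KM against TI-K primaries. Without the 2 arrays farthest from the median Mki67, r in the remaining TI-KM primaries was -0.70 for Mcm5, -0.28 for Rrm2 and -0.45 for Brca1. No paired analysis was possible because the replicate numbers only name arrays in accession order and no label ties a tumour of one group to a tumour of another. With 1 normal array, its own spread cannot be measured.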
